A study of Mus musculus with 62 samples.

Results

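The regions described here are the H3K27ac regions that gained acetylation in quadriceps of mice overexpressing PGC1α and that already carried an H3K27ac peak in quadriceps of unmanipulated wild-type mice. They were chosen by overlap. Of the 1828 regions in the deposited list of hyperacetylated regions, 956 shared at least 1 bp with the deposited Quad H3K27ac list of 40949 regions. Of the rest, 224 overlapped a soleus peak and no Quad peak, and 648 overlapped neither. Because the authors put regions on the hyperacetylated list for their difference between the transgenic and wild-type libraries, that difference is given below as a description and was not tested.

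H3K27ac is acetylation of lysine 27 on histone H3 and marks active enhancers and promoters. PGC1α, encoded by Ppargc1a, is a coactivator without DNA binding of its own. It is recruited by transcription factors such as the estrogen-related receptors (ERR) and the PPARs, and it is known in skeletal muscle for raising mitochondrial, fatty acid oxidation and slow-fiber genes. MED1 is a subunit of the Mediator complex, which links such factors to RNA polymerase II.

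The series comprised 62 mouse skeletal muscle libraries. The compared quadriceps came from male mTg mice, in which Ppargc1a is driven by the muscle creatine kinase promoter and hence in differentiated muscle, and from Wt littermates, with 1 quadriceps of 1 animal per library and 2 libraries per mark. The Quad, Sol (soleus), EDL (extensor digitorum longus) and Dia (diaphragm) groups were unmanipulated sedentary wild-type mice, and EDL, Sol and Dia chromatin was pooled from several animals per library. Sed and Ex were quadriceps of wild-type mice kept without or with a running wheel. H3K4me2, another mark of enhancers and promoters, was profiled in the same groups with 2 libraries each. MED1 (4 muscles) and NFAT (Quad and Sol) had 1 library each, so they have no replicates. ATAC-seq, which maps accessible chromatin, was used as 1 pooled list from control Quad. The 4 Wt and mTg H3K27ac libraries held 11.7 to 14.9 M tags, and all 32 histone libraries held 6.41 to 24.2 M. The labels give the strain C57BL/6 for all libraries. The Sed and Ex mice were males housed from 8 weeks of age for 4 weeks. The age of the mTg mice and their littermates is not given in the sources used here.

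The libraries labelled Wt and mTg for H3K4me2 stood apart. Peaks of the libraries labelled Wt overlapped 63.8% of all hyperacetylated and 30.9% of all hypoacetylated regions, whereas peaks of those labelled mTg overlapped 20.8% and 25.4%. In the Quad H3K4me2 list, from other animals, the order was the opposite of that in the libraries labelled Wt, at 41.6% and 53.0%. Their lists were also of unequal size (46944 and 27527 regions), and a library labelled mTg was the shallowest of all. Results on these H3K4me2 libraries are therefore given by label only. No other result below rests on them.

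Bases shared by the regions are shown first. A window of 500 bp at each region's centre was searched on both strands for short words that transcription factors of muscle are known to bind. The nuclear receptor half-site AGGTCA lay in 40.1% of the 956 windows (Wilson 95% interval 37.0 to 43.2%) and in 30.3% of the windows of all Quad regions. Its extended form TCAAGGTCA, the word preferred by ERR, lay in 30 windows (3.14%, interval 2.21 to 4.44%) against 1.49%. The MEF2 word, bound by the muscle factors of the MEF2 family and equal to its own reverse complement, lay in 39 windows (4.08%, interval 3.00 to 5.53%) against 2.03%. In the merged Wt and mTg regions with a Quad peak, from which the authors' list was drawn, the shares were 30.6%, 1.44% and 2.07%, close to those of all Quad regions. Hyperacetylated regions with a Sol but no Quad peak had 38.8%, 3.13% and 4.46%, and those with neither had 38.3%, 3.86% and 5.25%. The higher shares were thus found over the whole hyperacetylated list and were not particular to the regions described here. Every TCAAGGTCA contains AGGTCA, and 38.0% of the windows held the half-site outside the longer word, against 29.3%. The E-box CAGCTG, read by MyoD-type factors, was in 26.2% against 28.9%, and the AP-1 word TGACTCA was in 10.04% against 10.4%. Of the other words searched, AAAGGTCA was in 4.39% against 3.29%, ACATTCC in 7.64% against 7.37%, GGAAAA in 36.2% against 39.2% and GGGGCGGGG in 4.29% against 5.45%. Median GC content was 47.8% in the regions and 48.4% in all Quad regions. Over whole regions, which are wider than the Quad regions, the E-box, the AP-1 word and GGAAAA were more frequent than in all Quad regions, so the direction for them depends on the window. A match is a run of letters and not a measured binding site, and no test was made. The paper had already reported MEF2 and ERR motifs as overrepresented in the hyperacetylated regions of these same data. The excess of these words is therefore not independent of that report.

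The accessible stretches inside the regions carried the same words. Of the 651 ATAC peaks that overlapped the regions, 23.2% held AGGTCA (interval 20.1 to 26.6%), against 16.0% of all 44911 ATAC peaks. TCAAGGTCA was in 8 (1.23%) against 0.298%, and the MEF2 word in 33 (5.07%) against 2.07%. This background was not limited to ATAC peaks inside H3K27ac regions, so the 2 sets are unlike, and the count of 8 is small. Examples were picked after their values were seen, to show the words in place. They are 195 bp ATAC peaks of mm10 (GRCm38.p6 sequence), read on the plus strand 5′ to 3′, with the words in capitals on whichever strand they match. The first 3 hold TCAAGGTCA or its reverse complement. They lie at chr4:130306833-130307027 near Fabp3 (an intron of the predicted gene Gm10570), at chr3:127521239-127521433 (between genes, nearest to Mir302b) and at chr8:126909376-126909570 (between genes, nearest to Tomm20, an import receptor of the mitochondrial outer membrane).
Fabp3: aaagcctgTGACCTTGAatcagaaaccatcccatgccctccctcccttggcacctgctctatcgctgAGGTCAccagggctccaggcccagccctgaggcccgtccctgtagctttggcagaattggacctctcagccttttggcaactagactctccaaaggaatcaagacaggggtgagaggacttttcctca
Mir302b: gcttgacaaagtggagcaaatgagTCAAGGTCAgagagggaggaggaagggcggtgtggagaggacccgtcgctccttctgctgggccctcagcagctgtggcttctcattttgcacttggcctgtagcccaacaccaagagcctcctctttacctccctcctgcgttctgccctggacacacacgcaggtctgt
Tomm20: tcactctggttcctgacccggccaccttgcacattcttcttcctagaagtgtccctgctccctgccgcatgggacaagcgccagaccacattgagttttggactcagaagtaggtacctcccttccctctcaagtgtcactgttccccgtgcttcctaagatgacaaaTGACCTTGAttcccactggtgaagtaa

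The next 3 hold the MEF2 word. They lie at chr12:86498825-86499019 (an Esrrb intron), chr7:116012547-116012741 (a Sox6 intron) and chr19:36773777-36773971 (between genes, nearest to Ppp1r3c, a glycogen-targeting phosphatase subunit).
Esrrb: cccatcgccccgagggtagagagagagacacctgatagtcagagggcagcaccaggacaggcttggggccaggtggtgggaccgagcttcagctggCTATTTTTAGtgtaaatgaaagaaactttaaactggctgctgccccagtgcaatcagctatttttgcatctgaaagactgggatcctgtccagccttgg
Sox6: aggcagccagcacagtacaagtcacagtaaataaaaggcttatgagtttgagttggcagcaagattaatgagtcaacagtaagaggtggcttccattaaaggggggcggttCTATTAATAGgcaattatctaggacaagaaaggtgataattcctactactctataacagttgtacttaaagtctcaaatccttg
Ppp1r3c: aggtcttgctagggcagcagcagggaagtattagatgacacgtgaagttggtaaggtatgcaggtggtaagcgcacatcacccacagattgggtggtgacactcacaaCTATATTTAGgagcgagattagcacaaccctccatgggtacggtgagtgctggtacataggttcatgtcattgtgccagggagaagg

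A gene name below stands for the region whose nearest annotated start site belongs to that gene, and not for the gene's expression. Levels of H3K27ac are the deposited log2 tag levels of each region, normalized by the authors over the 4 Wt and mTg libraries. Median levels over the 956 regions were 6.35 and 6.45 in the Wt libraries and 7.31 in both mTg libraries. Per kb of region width, which is the scale on which regions can be compared with each other, the medians were 5.13 and 5.23 in Wt and 6.08 in both mTg libraries. In bulk muscle, more acetylation per nucleus and more nuclei of a kind cannot be told apart. The median difference, mTg minus Wt, was 0.83 on the log2 scale, with a range from 0.40 to 1.99. The median SD between replicates was 0.10 in Wt and 0.083 in mTg. Both mTg libraries were above both Wt libraries in all 956 regions. The authors' list was made on this contrast, which called 2.78% of the 34431 merged Wt and mTg regions with a Quad peak, so nothing is read from that count. A difference over 1, a doubling, was reached by 222 regions (23.2%). The hyperacetylated regions with a Sol but no Quad peak had a median difference of 0.71, and those with neither had 0.61. These 2 classes were also narrower, with median widths of 1525.5 and 1343.5 bp against 2301.5 bp.

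The label of these regions as already active was checked in quadriceps of other wild-type mice, those of the Sed group. The Sed list held a peak at 667 of the regions (69.8%), against 69.0% of all Quad regions and 78.1% of the merged Wt and mTg regions with a Quad peak, so the share was near the first background and below the second. The Wt libraries belong to the contrast that chose the regions, and the 728 regions (76.2%) with a peak in the Wt list are a description only. Over the comparison sets that share was 75.7% and 90.7%. Neither a Wt nor a Sed peak was found at 121 regions (12.7%), a share not computed for the comparison sets. By its level per kb, the overlapped Quad peak stood at a median percentile of 51.5 among all Quad regions, so the regions lay in the middle of the quadriceps range and not at its top. Only 34 were in the top 10% of the Quad list and 50 in the bottom 10%. The regions were wide, with a median of 2301.5 bp against 1552 bp for all Quad regions, and a median of 61.6% of their bases was covered by Quad peaks. The authors called 703 of them in both Wt and mTg quadriceps, 228 in mTg only and 25 in Wt only.

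The regions at the edge of the rule shared few bases with a Quad peak. Regions just inside lay near Uaca (7 bp shared, difference 0.78) and Klf4 (56 bp, 0.40). Those just outside lay near Mtf2 (133 bp from the nearest Quad peak, difference 0.51), Aqp8 (140 bp, 0.56) and Cyp1a1 (147 bp, 0.75). The weakest differences inside the rule, all of 0.40, were near Adgrd1, Klf4 and Phka1.

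Most regions lay away from promoters. By the deposited annotation, 64 (6.69%, interval 5.28 to 8.46%) were promoters, defined as 1000 bp upstream to 100 bp downstream of a start site, against 11.2% of all Quad regions. A further 528 (55.2%) were intragenic, 463 of them in introns, and 364 (38.1%) were intergenic, against 31.9% of all Quad regions. The median distance to the nearest start site was 20230 bp, against 16646 bp. The median difference was 0.86 at promoters, 0.83 in intragenic and 0.82 in intergenic regions.

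The largest difference was near Cds1, which encodes a CDP-diacylglycerol synthase of phospholipid synthesis. A region in a Cds1 intron (chr5:101810539-101812929, 46604 bp from the start site) had levels of 5.44 and 5.22 in Wt and 7.23 and 7.41 in mTg, a difference of 1.99. A region 1254 bp from the Cds1 start site (chr5:101764402-101768367) had 6.47 and 6.72 in Wt and 8.53 and 8.54 in mTg, a difference of 1.94. In both, the Wt libraries were far below the mTg libraries. The first stood at percentile 7.29 of Quad levels and carried neither ATAC nor Quad H3K4me2, and the second stood at percentile 29.2 and carried both.

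Esrrb, which encodes the estrogen-related receptor ERRβ, came next. Its region at the start of the gene (chr12:86420840-86422983, 267 bp from the start site, annotated as 5′ UTR) had 6.05 and 6.07 in Wt and 8.11 and 7.69 in mTg, a difference of 1.85. The mTg libraries differed more from each other than the Wt libraries did, but all of them were higher. The region stood at percentile 13.5 of Quad levels, was called by the authors in mTg only and had no Sed peak. Tmem65, a mitochondrial inner membrane protein, was nearest to a 6109 bp intergenic region with 7.83 in both Wt libraries and 9.59 and 9.48 in mTg. Casq2, the slow and cardiac calsequestrin that stores calcium in the sarcoplasmic reticulum, had 5.98 and 6.49 in Wt and 7.96 and 7.88 in mTg. Fndc5, the precursor of irisin, had 6.26 and 6.80 in Wt and 8.20 and 8.07 in mTg. Casc1, at 6.65 and 6.66 in Wt and 8.37 and 8.31 in mTg, was the only one of the 12 largest without a Sol peak. The others, near Wfs1, Plbd1, Cd180, Ush1g and 2310069B03Rik, differed by 1.60 to 1.68.

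**Figure D1:**
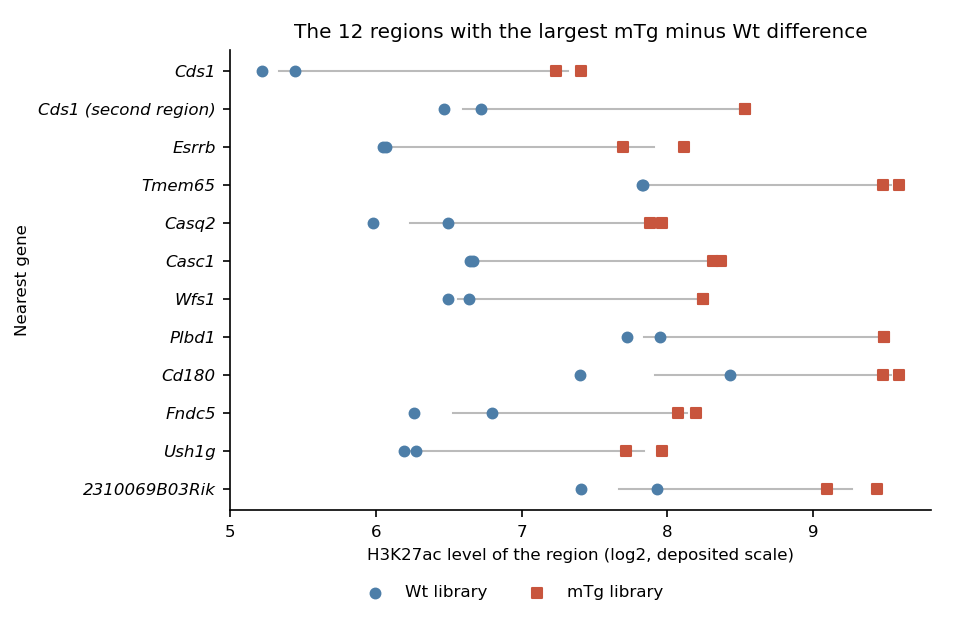
H3K27ac level (log2, deposited scale) in each Wt library (circles) and mTg library (squares) for the 12 regions with the largest difference, named by nearest gene, with a grey line joining the group means. In all 12 the mTg squares lie to the right of the Wt circles, and the Wt circles of Cd180, at 7.40 and 8.43, lie farthest apart.

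Per kb, the highest mTg levels were found at regions near several metabolic genes. Ndufa8, a complex I subunit, had the highest level per kb in mTg (8.14), and its promoter region had total levels of 7.80 and 7.95 in Wt and 8.91 and 8.69 in mTg. Mdh1, the cytosolic malate dehydrogenase, followed at 7.93 per kb, and Got2, the mitochondrial aspartate aminotransferase of the same shuttle, at 7.91 per kb. Me3, a mitochondrial malic enzyme, and Vegfb, a growth factor tied to fatty acid uptake, were each at 7.87 per kb. The 6 highest, Pm20d2 included, stood at percentiles 84.1 to 97.8 of Quad levels and were thus among the stronger quadriceps regions.

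The regions had 806 distinct nearest genes. Among all genes nearest to a Quad region, 803 of 13857 (5.79%) were nearest to at least 1 of them. The lists of pathway genes below were written with earlier results of these data known, so the counts describe and do not test. Over the 13 lists, 55 of the 297 genes with a Quad region (18.5%) had one of the regions.

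Genes of fatty acid uptake, storage and oxidation had the highest share, 11 of 32 (34.4%). They had 15 regions with a median difference of 0.96 and a range of 0.77 to 1.60, and all 15 overlapped a Sol peak. Plin5, a lipid droplet protein that couples droplets to mitochondria, had a promoter region at 8.66 and 8.87 in Wt and 10.40 and 10.33 in mTg. Fabp3, the muscle fatty acid binding protein, had 2 regions. The upstream one was at 7.72 and 7.61 in Wt and 8.90 and 8.94 in mTg, and the one at the gene, which holds the sequence with TCAAGGTCA above, was at 9.65 and 9.57 in Wt and 10.67 and 10.53 in mTg. Cpt2, which acts in the carnitine shuttle, was at 8.32 and 7.96 in Wt and 9.33 and 9.24 in mTg. The fatty acid transporter Cd36 had 3 regions, with differences of 0.77, 1.06 and 1.15. Acadl, Acadvl, Acot13, Acsl1, Decr1, Hadh and Slc25a20 made up the list.

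The transcriptional regulators of the same pathways followed, with 6 of 19 genes (31.6%) and 9 regions with a median difference of 0.99. Esrrg, encoding ERRγ, had a region 815 bp from its start site at 5.59 and 5.76 in Wt and 7.09 and 7.29 in mTg. Ppara, the fatty acid sensing receptor PPARα, had a promoter region with a difference of 0.87 and an intronic one with 1.04. Pparg, best known from adipocytes, had 2 regions with differences of 0.99 and 1.08. The coactivator Ppargc1b had a difference of 0.86. The region nearest to Ppargc1a itself (chr5:51131485-51133285) lay 421536 bp from the start site, with 5.41 and 5.63 in Wt and 6.01 and 6.20 in mTg, so it does not check the transgene. Neither differential list held a region nearest to Ckm, whose promoter drives the transgene.

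The list for the respiratory chain and citric acid cycle had 7 of 43 genes (16.3%), with narrowly spread differences of 0.79 to 1.01. They were the complex I subunits Ndufa5 and Ndufb5, the cytochrome oxidase subunits Cox5b and Cox6a1, the ATP synthase subunit Atp5g1, the succinyl-CoA ligase subunit Sucla2 and Mdh1. The list counted Mdh1 although it is the cytosolic enzyme, and it did not hold Ndufa8, named above. Cox6a1 was at 7.65 and 7.79 in Wt and 8.82 and 8.64 in mTg. Ldhb, the lactate dehydrogenase subunit of oxidative tissue, was at 6.61 and 6.68 in Wt and 7.70 and 7.69 in mTg. With the transporter Slc16a1 and Got2 it made up 3 of 17 genes of lactate, ketone and pyruvate use. Glucose uptake and glycolysis had 4 of 23 genes and the lowest median difference of the lists, 0.57, from 0.40 at Phka1 to 1.06 at Gbe1, the glycogen branching enzyme.

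Other groups followed by role. Of genes of angiogenesis and oxygen supply, 6 of 22 had a region, among them Vegfb (7.80 and 7.94 in Wt, 9.07 and 8.78 in mTg), Fgf1 (8.80 and 8.94 in Wt, 10.01 and 9.99 in mTg) and Efnb2. Of ion and solute transport, 5 of 25 did, among them the magnesium transporter Slc41a1 with 3 regions, of differences 0.78, 1.04 and 1.45, and the sodium pump subunit Atp1b1 with a region 13571 bp wide. Slow and oxidative-fiber contractile genes had 3 of 19 (Casq2, Mb and Myom3), fast-fiber genes 1 of 22 (Myh1) and genes of the neuromuscular junction 0 of 13. Growth and myokine genes had 3 of 19 (Bdnf, Fndc5 and Foxo3), and mitochondrial dynamics 2 of 15 (Mfn1 and Park2).

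Myogenic and fiber-type factors had 4 of 28 genes, and their 6 regions included 4 without a Sol peak. These were near Sox6, a repressor of slow-fiber genes, Maf, which is known to favor fast fibers, and Tbx15, a factor of fast fibers, which had 2. The Sox6 region, which holds the MEF2 word printed above, was at 6.78 and 6.70 in Wt and 7.47 and 7.68 in mTg.

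**Figure D2:**
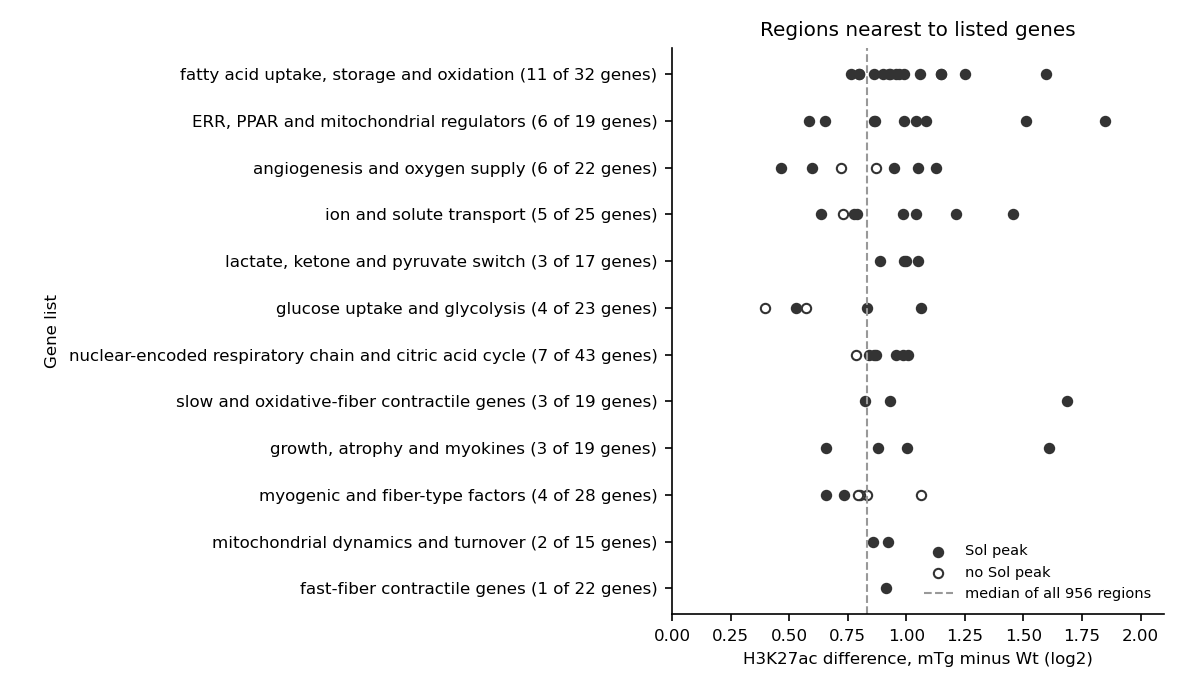
Difference in H3K27ac level, mTg minus Wt (log2), of each region whose nearest gene is on one of 12 lists, with filled points for regions with a Sol peak, open points for those without and a dashed line at the median of all 956. All 15 fatty acid points are filled, and 4 of the 6 points of the myogenic and fiber-type factors are open.

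Markers of other cell types in muscle were looked for among the nearest genes. None of the 65 marker genes of endothelial cells, macrophages, fibroblasts, satellite cells, pericytes, Schwann cells and adipocytes was nearest to one of the regions, although 55 of them were nearest to a Quad region. The share over all genes with a Quad region was 5.79%, as above. At that share only a few of 55 genes would be expected, so nothing is read from their absence. Among the hyperacetylated regions without a Quad peak, 1 endothelial and 1 adipocyte marker gene was nearest to a region. Of 10 markers of mature muscle fibers, Mb and Myh1 were nearest to one of the regions described here. By qPCR, the paper found higher transcript levels of macrophage and vascular markers in mTg muscle. It proposes that a different mix of cells may be part of what was measured there. Whether this holds at the regions described here was not tested.

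Several genes were nearest to many of the regions. Camta1, a calcium-responsive transcription factor, and Cd180, a receptor of B cells that lies far from its regions, had 5 each, and 7 genes had 4. Altogether 278 regions (29.1%) had another within 50000 bp. Neither this share nor the number of regions per gene was computed for a comparison set, so neither is read as clustering. The richest stretch of at most 1000000 bp, at chr13:101427019-102413543 and named after its regions were seen, held 11 of them, all with a Sol peak, among 40 merged Wt and mTg regions with a Quad peak. It holds Pik3r1, a regulatory subunit of PI3-kinase. Differences in it ran from 0.69 to 1.62. The next, of 152134 bp on chromosome 5 around Cd36 and Gnat3, held 7, among 14 merged regions.

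Overlap with soleus and the other muscles was set beside 2 comparison sets, all Quad regions and the 34431 merged Wt and mTg regions with a Quad peak, from which the authors' list was drawn. The latter set was added after the data were seen. A Sol H3K27ac peak was present at 697 of the 956 regions (72.9%, interval 70.0 to 75.6%), against 65.5% of all Quad regions and 73.4% of the merged regions. The share was thus higher than in the first set and not in the second. EDL peaks were at 83.9%, against 73.1% and 81.6%, and Dia peaks at 77.0%, against 63.0% and 71.1%. A total of 575 regions (60.1%) had a peak in all 4 muscles, against 51.1% and 59.5%, and 66 (6.90%) in Quad alone, against 16.7% and 9.44%. Here too the regions were closer to the merged set than to all Quad regions.

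The 259 regions with no Sol peak had lower medians. Their median difference, mTg minus Wt, was 0.73, against 0.86 in those with a Sol peak, and their overlapped Quad peaks stood at a median percentile of 35.0 against 57.0. They were also narrower (median 1862 against 2472 bp) and lower in Wt (4.87 against 5.31 per kb). Whether the smaller difference goes back to this was not tested. After Casc1, the largest were near Hrh2, the histamine H2 receptor (7.09 and 6.97 in Wt, 8.39 and 8.60 in mTg), and Plvap, an endothelial protein that was not on the marker list (6.36 and 6.34 in Wt, 7.85 and 7.73 in mTg). Slc25a36, Nudt7 and Odf2l followed, with differences of 1.34 to 1.41.

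**Figure D3:**
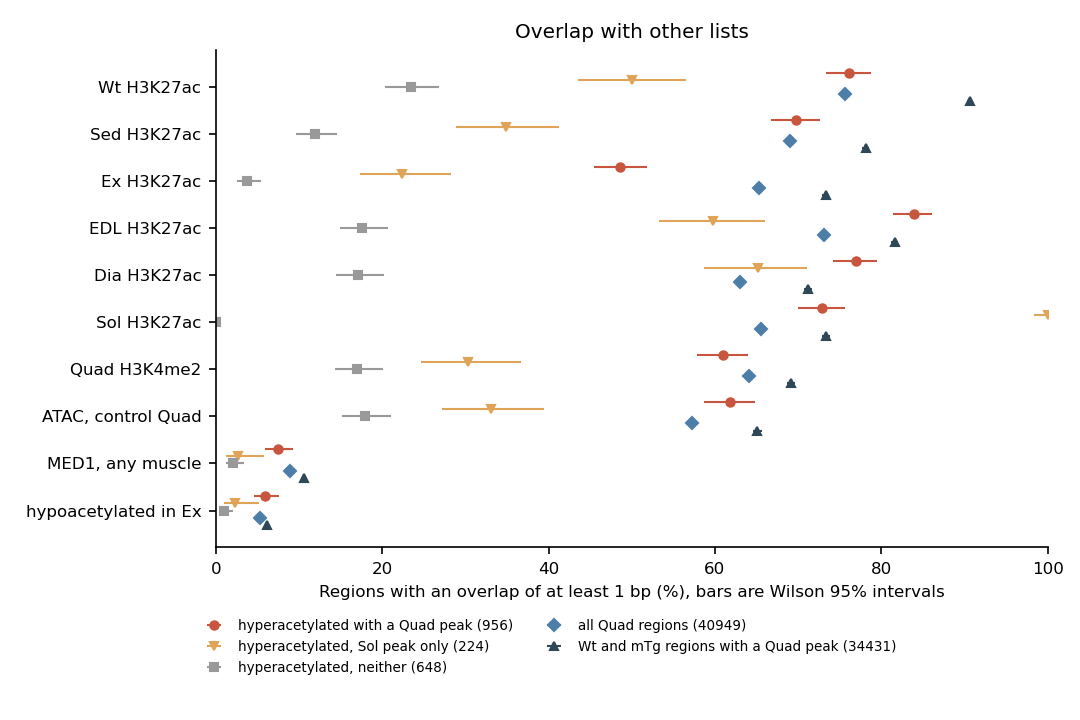
Share of regions (%) that overlap each list on the vertical axis by at least 1 bp, with Wilson 95% intervals, for the 3 classes of hyperacetylated regions and the 2 comparison sets. Circles of the 956 regions lie at 48.6% for Ex H3K27ac, below both comparison sets (65.3 and 73.3%), and above both for EDL and Dia.

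Levels in Sol and Quad were compared where a Sol and a Quad peak shared at least 50% of their lengths, each way. The lists were normalized separately, so the log2 level per kb was centred on the median of all 19468 matched regions. Of the 956 regions, 474 could be matched, all of them necessarily with a Sol peak. Their median centred difference, Sol minus Quad, was 0.15 (quartiles -0.13 to 0.53), and 65.4% lay above 0. A centred difference over 1 on the deposited log2 scale is called 2-fold from here on. With no overlap of the 2 Sol and 2 Quad libraries, it was found at 29 regions in the direction of Sol (6.12%). Over all matched regions that share was 1.25%. In the direction of Quad it was found at 6 (1.27%), against 2.49%. The centred difference was 1.23 near Ldhb, 1.22 near Esrrb and 1.06 near Fndc5, and -1.23 near Gapdh, a glycolytic enzyme. With 2 against 2 libraries an exact two-sided permutation test cannot go below 0.333, so none was run.

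Exercise was a comparison that the rule did not use. Peaks of Ex quadriceps were at 48.6% of the regions and peaks of Sed quadriceps at 69.8%. Over all Quad regions the shares were 65.3% and 69.0%, and over the merged regions 73.3% and 78.1%. Hyperacetylated regions with a Sol but no Quad peak had 22.3% and 34.8%, and those with neither had 3.70% and 11.9%. Regions hypoacetylated in mTg had 52.0% and 78.1%. The lower share in Ex was thus not particular to the regions described here. A Sed peak without an Ex peak was found at 256 regions (26.8%), against 14.4% and 14.6%, and the reverse at 54 (5.65%), against 10.7% and 9.80%. The authors' regions hypoacetylated in Ex overlapped 56 of the regions (5.86%), against 5.32% of all Quad regions and 6.09% of the merged regions, a share near both backgrounds. Their regions hyperacetylated in Ex overlapped 0, against 0.469%.

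At the 297 regions that could be matched between the Ex and Sed lists, the median centred difference per kb, Ex minus Sed, was -0.34 (quartiles -0.59 to -0.043), and 19.9% lay above 0. Over 2-fold and without overlap of libraries, 1 was higher in Ex (0.337%), against 0.7% of all 18430 matched regions, and 9 were lower (3.03%), against 2.47%. The shift was thus broad and small, with few regions past 2-fold. Regions hypoacetylated in mTg also had a negative median, -0.22 over 204 matched regions. Without Ex replicate 2 the median was -0.23. Regions near Atp1b1, Got2 and Cox6a1 had centred differences of -0.71, -0.65 and -0.31, and those near Cpt2 and Ldhb had 0.65 and 0.57. Among the described regions that were hypoacetylated in Ex, Cish, a suppressor of cytokine signaling, was at 7.88 and 8.19 in Wt and 9.78 and 9.17 in mTg. Adig, a regulator of adipocyte differentiation, was at 7.30 and 7.62 in Wt and 8.91 and 8.96 in mTg. Myh1, the fast IIx myosin, and regions near Slc25a36 and Lrtm1 were hypoacetylated in Ex as well.

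**Figure D4:**
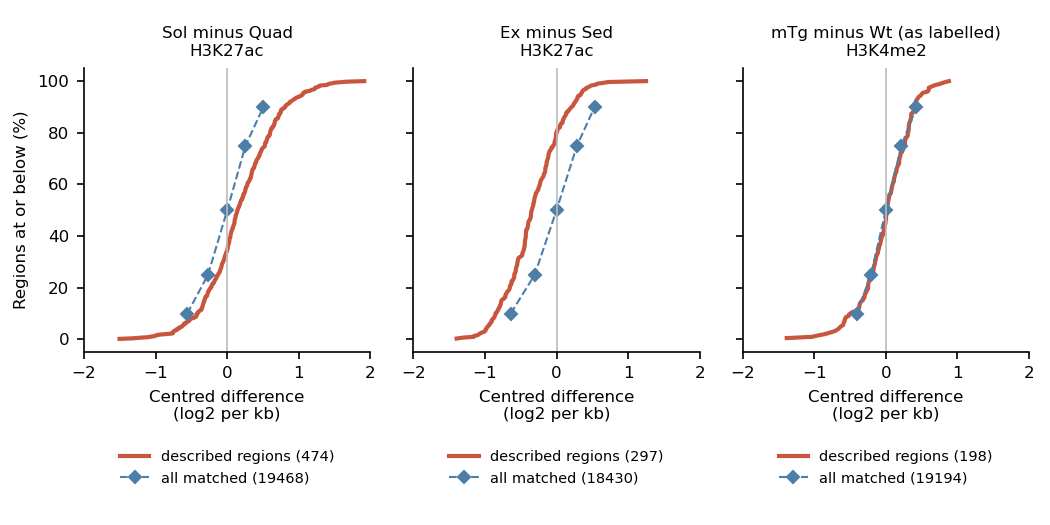
Cumulative share of regions (%) by centred difference in level per kb (log2), for the regions that could be matched (line) and for percentiles of all matched regions (diamonds). The line lies to the right of the diamonds for Sol minus Quad, to the left for Ex minus Sed, and on them for H3K4me2 of the libraries labelled mTg and Wt.

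H3K4me2 and accessibility were also independent of the rule. Quad H3K4me2 peaks were at 583 of the regions (61.0%), against 64.1% of all Quad regions and 69.2% of the merged regions. ATAC peaks of control quadriceps were at 591 (61.8%), against 57.2% and 65.1%. Because the regions are wide, 1000 bp at each centre was also compared, and the ATAC share was then 44.0% against 46.8% of all Quad regions. Both marks were at 405 regions (42.4%), against 45.3% and 51.8%, and neither at 187 (19.6%), against 24.03% and 17.5%. Regions with an ATAC peak had a median difference of 0.86 and those without 0.75, and median widths of 2527 and 1967 bp.

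At 198 regions matched between the H3K4me2 lists labelled mTg and Wt, the median centred difference was 0.02, with 0 regions over 2-fold higher, against 0.333% of 19194, and 2 over 2-fold lower (1.01%), against 0.391%. Peaks of the libraries labelled Wt were at 718 of the 956 regions (75.1%), against 60.2% of all Quad regions and 67.0% of the merged regions. Peaks of those labelled mTg were at 268 (28.0%), against 40.7% and 45.7%. The matched regions leave out those with a peak in only one of the lists.

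MED1 was found at few of the regions. A MED1 peak of any muscle was at 71 (7.43%), against 8.92% of all Quad regions and 10.5% of the merged regions, and Quad MED1 was at 28 (2.93%), against 3.76% and 4.46%. Sol MED1 was at 33 (3.45%), against 4.34% and 5.20%, Dia MED1 at 17 (1.78%), against 3.31% and 3.95%, and EDL MED1 at 6 (0.628%), against 0.911% and 1.12%. All of these shares were below those of both comparison sets, and the MED1 lists differed in size, from 834 peaks in EDL to 4070 in Sol. Of the regions with MED1, 9 had MED1 in 2 or more muscles. Among them was the widest region of all, 26781 bp in Coq8a, a kinase-like protein of coenzyme Q synthesis, at 11.033 and 11.171 in Wt and 12.204 and 12.001 in mTg. Slc16a1, a lactate transporter, at 8.03 and 8.22 in Wt and 9.09 and 8.94 in mTg, and Ciapin1, an iron-sulfur assembly factor, at 9.08 and 9.11 in Wt and 10.11 and 9.84 in mTg, had MED1 in Quad, Sol and Dia. Acadl, Plec and Tmem25 each had it in 2 muscles. Regions with MED1 in any muscle had a median difference of 0.86 and those without 0.83. NFAT peaks of Quad were at 0 of the regions, against 0.0464% of all Quad regions, and NFAT peaks of Sol at 30 (3.14%), against 2.74%. The NFAT lists held 485 peaks in Quad and 39661 in Sol, so the 2 counts cannot be compared with each other.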

How the data were processed

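H3K27ac and H3K4me2 ChIP-seq, MED1 and NFAT ChIP-seq and ATAC-seq peak lists of mouse muscle were used as deposited. Reads were aligned by the authors to mm10 with Bowtie (version 1.2 in the submitters' processing notes), and histone peaks and differential regions were called over both replicates with HOMER and DESeq2. The tag levels in the deposited histone lists are log2 values that the authors computed with DESeq2 within each list, taken here as its regularized log. The p-value and log2 enrichment over input that the authors give for each peak served only to filter peaks. The MED1 peak score and the ATAC score and tag signal, scaled by the authors, served to rank peaks. Columns holding the authors' mTg against Wt and Ex against Sed fold changes and p-values were not used, and the weakest regions were therefore named by the difference of deposited levels. ATAC lists of exercised and transgenic muscle are not in mm10 and were not used here.

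Regions were overlapped with at least 1 bp (Python 3.11.15, numpy 2.4.6, pandas 2.3.3), and sequences were read from GRCm38.p6 (pysam 0.24.0). Interval and matching code was tested on simulated data. Named genes were those of the 12 largest differences, the 6 highest levels per kb, up to 3 per pathway list, genes with 4 or more regions, and up to 6 each for MED1, exercise and absence from Sol, besides the edges of the rule, where 1 region is not reported here. Further pathway members, stretches rich in regions and printed sequences were chosen after their values were seen. The regions and gene lists were chosen with earlier results of these data known, and the paper's motif results were known as well. The Wilson intervals (95%) cover counting error only, and regions are not replicates of animals.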

Additional observations from a re-analysis of the deposited data

How the results depend on the processing

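No paired analysis was possible because the results come from no test. The number of regions was 799 with Quad peaks of at least 4-fold enrichment, 631 with at least 50% of the region covered and 623 with Quad peaks at an adjusted p under 0.001. A filter on the authors' adjusted p of the hyperacetylated list was not run, since that column was not used. The median mTg minus Wt difference was 0.77 to 0.89 when 1 replicate was left out. It was 0.58 when each library was centred on its median over both differential lists. That centring took 0.25 from every region, less than the lowest difference of 0.40, so all 956 necessarily stayed above 0. Both lists were chosen on these same libraries, so the centring is no check of the normalization. Overlap with Sol was 59.4% with 50% of the region covered and 66.5% with Sol peaks of at least 4-fold enrichment. In 1000 bp at the centre it was 70.1%, against 64.9% of all Quad regions. Quad H3K4me2 was at 55.0% in 1000 bp, against 61.5% of all Quad regions, and at 50.3% with 4-fold peaks. Quad MED1 was at 1.36% in 1000 bp, against 2.39% of all Quad regions, and at 0.837% with the 834 highest peaks of each muscle. ATAC was at 44.0% in 1000 bp and 28.0% with the 20000 highest peaks. With the centre within 1000 bp of a start site, 15.4% were promoters, against 21.3% of all Quad regions. The share of regions with AGGTCA was 1.32 times that of all Quad regions in 500 bp, 1.22 times in 1000 bp and 1.29 times over whole regions. Over whole regions the ratio turned from below to above 1 for CAGCTG (0.90 to 1.16), TGACTCA (0.96 to 1.28, and 1.08 in 1000 bp) and GGAAAA (0.92 to 1.14), and for ACATTCC it went from 1.04 to 0.99 in 1000 bp and 1.31 over whole regions. The matched Sol minus Quad median was 0.12 to 0.21 with 1 replicate left out and 0.098 at 80% overlap, and Ex minus Sed was -0.46 to -0.23 and -0.29. The H3K4me2 median of the libraries labelled mTg and Wt was -0.025 to 0.10 and -0.021, so its sign was not stable. Pathway genes near a region numbered 48 within 100000 bp, against 55. With the merged Wt and mTg regions as the comparison set, chosen after seeing the data, the excess over the comparison set went from 7.38 to -0.46 percentage points for Sol, from 4.58 to -3.28 for ATAC from 0.80 to -8.37 for Sed and from 0.54 to -0.23 for the regions hypoacetylated in Ex, and kept its direction for EDL, Dia, Ex, Quad H3K4me2 and MED1. The cause of these changes was not tested. Each group had 2 libraries, which limits every statement on levels, and MED1 and NFAT had 1.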
